A study of Mus musculus with 12 samples.

Results

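The genes described are 10 of the 22880 features in a raw count table from 12 RNA-seq libraries of 4T1, a mouse mammary tumour cell line. They are the mammary lineage transcription factors Gata3, Foxa1, Elf3, Elf5, Sox9, Sox10, Trp63 and Runx1 and the hormone receptors Esr1 and Pgr. They were chosen by name, with earlier results of these data known, and each of the 10 symbols matched 1 Ensembl identifier in the table. The gene lists set beside them were chosen in the same way. Counts of called genes therefore describe these genes and do not test them against the share over all genes. The 4 groups hold 3 libraries each. MYBup is 4T1 transfected with pcDNA3-mMyb, a plasmid carrying the mouse Myb oncogene, and mock is 4T1 transfected with pcDNA3.1. lung3 is 4T1 passaged 3 times through mouse lungs, which the series describes as selected for efficient lung seeding, and wt is 4T1 with no plasmid and no passaging. The submitters gave MYBup a low and lung3 a high lung metastatic activity, and compared MYBup with mock and lung3 with wt. The labels do not say whether a group is 1 clone or a pool, nor whether its libraries are separate cultures. P-values therefore measure only the spread between these libraries. In bulk RNA libraries fewer cells of a type and less RNA per cell cannot be told apart.

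The mammary epithelium has an inner luminal layer, with hormone-sensing cells and alveolar cells that make milk, and an outer basal or myoepithelial layer. Gata3 is a zinc-finger factor needed for luminal differentiation, Foxa1 is a forkhead factor that opens chromatin for the oestrogen receptor, and Elf5 is the ETS factor of the alveolar lineage. Elf3 is an epithelial ETS factor, Esr1 encodes oestrogen receptor alpha and Pgr, a classic oestrogen target, the progesterone receptor. Sox9 is active in luminal progenitors, Sox10 in cells with stem-like or neural crest-like features, and Trp63 encodes p63, the regulator of the basal layer. Runx1, a partner of core-binding factor beta, works in both layers.

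Promoter windows of RefSeq on GRCm38.p6, running from 250 bases before to 50 bases after an annotated start, were available for 7 of the 10 genes, 10 windows in all. They are read 5′ to 3′ on the gene's strand. Capitals mark the hexamers searched on both strands: the Myb hexamers CAACGG or CAACTG or TAACGG or TAACTG, the GATA hexamers AGATAA or AGATAG or TGATAA or TGATAG, and the ETS hexamers AGGAAG or CGGAAG. The Gata3 and Elf3 windows are shown because these genes had the widest span of levels across the groups, in unlike orders. The distal Runx1 window is shown because it was the 1 window of an expressed member with Myb hexamers. The Gata3 window lies at chr2:9878551-9878850 (minus strand), the Elf3 window at chr1:135258423-135258722 (minus strand) and the Runx1 window at chr16:92826025-92826324 (minus strand).
Gata3: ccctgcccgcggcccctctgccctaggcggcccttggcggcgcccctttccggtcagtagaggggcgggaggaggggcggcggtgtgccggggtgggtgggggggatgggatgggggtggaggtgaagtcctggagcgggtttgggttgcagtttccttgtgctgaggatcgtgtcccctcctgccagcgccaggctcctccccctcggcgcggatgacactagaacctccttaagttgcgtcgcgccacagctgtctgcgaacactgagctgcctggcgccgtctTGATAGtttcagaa
Elf3: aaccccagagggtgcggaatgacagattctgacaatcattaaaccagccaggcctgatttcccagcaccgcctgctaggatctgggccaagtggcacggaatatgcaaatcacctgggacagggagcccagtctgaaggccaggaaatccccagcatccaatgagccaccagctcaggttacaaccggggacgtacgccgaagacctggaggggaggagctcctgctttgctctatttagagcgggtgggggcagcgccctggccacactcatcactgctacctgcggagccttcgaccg
Runx1: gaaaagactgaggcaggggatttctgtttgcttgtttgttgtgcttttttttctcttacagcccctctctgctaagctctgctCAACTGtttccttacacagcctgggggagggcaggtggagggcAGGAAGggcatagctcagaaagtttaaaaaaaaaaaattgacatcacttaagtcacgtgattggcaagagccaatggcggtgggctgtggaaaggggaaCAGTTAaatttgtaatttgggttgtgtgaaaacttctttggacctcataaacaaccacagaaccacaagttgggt
The Gata3 window holds the GATA hexamer TGATAG near its 3′ end, the Elf3 window holds none of the hexamers, and the Runx1 window holds CAACTG and CAGTTA (the reverse complement of TAACTG) as well as AGGAAG. A Myb hexamer was present in 2 of the 10 windows, those of Runx1 and of the second Elf5 start, against 28.3% of all 32851 windows of this length. A GATA hexamer was present in 4 of the 10, against 29.8%, and an ETS hexamer in 3, against 46.5%. A match or its absence describes these letters in these windows and says nothing of binding.

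Library totals ran between 8912989 counts (lung3 replicate 2) and 24745660 counts (wt replicate 2). Levels are CPM, counts per 1000000 counted reads, scaled with TMM factors. Myb itself had 39.3, 42.9 and 39.8 CPM in the MYBup libraries and 2.22 to 6.80 CPM in the other 9, so the targeted gene followed the labels; reads of the plasmid insert and of the endogenous gene were not separated. Luminal markers summed to 3358 to 3483 CPM in MYBup and 3803 to 4181 CPM in mock, and to 2976 to 3415 CPM in lung3 and 3181 to 3637 CPM in wt. Of 12 leukocyte markers 5 had no read in any library, the T cell genes Cd3e, Cd3d and Cd8a and the macrophage gene Adgre1 among them, and the list summed to 3.18 to 4.24 CPM in MYBup and 3.86 to 6.42 CPM in mock, and to 8.08 to 8.32 CPM in lung3 and 4.75 to 6.38 CPM in wt. Of 9 lung epithelial markers 6 had no read, including the surfactant genes Sftpb, Sftpc and Sftpd, and the list summed to at most 1.055 CPM in any library.

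Of the 10 genes, 6 passed the filter on low counts and had reads in all 12 libraries. Per kilobase of exon, which allows levels of different genes to be set side by side, Gata3 was the most abundant at a mean of 21.5 CPM per kb over the 12 libraries, followed by Sox9 at 13.2, Elf3 at 7.46 and Runx1 at 6.07 CPM per kb. Foxa1 at 0.717 and Esr1 at 0.620 CPM per kb formed a lower tier. The length used is that of all annotated exons of a gene joined, so this order depends on the annotation. In CPM without the length, Runx1 at 72.9 lay above Sox9 at 54.4 and Elf3 at 16.5, and Esr1 at 8.47 lay above Foxa1 at 2.39. The other 4 genes were at or near 0. Trp63 had 20 reads in all, spread over 10 libraries, which is 0.0115 CPM per kb. Elf5 had 1 read, in lung3 replicate 3, and Sox10 had 1 read, in mock replicate 3. Pgr had 0 of 198906625 counts, which allows a level of up to 0.0151 CPM over the 12 libraries together. These limits cover counting error only. The expressed genes were thus Gata3, Elf3, Sox9 and Runx1, with Foxa1 and Esr1 low. The alveolar factor, the basal factor, Sox10 and the progesterone receptor were not detectable or barely so at this depth. Among the marker genes, the milk protein genes Wap and Lalba had 0 reads and Csn2 had 1, but Csn3, another milk protein gene, had 9.05 CPM in MYBup, 6.90 CPM in mock, 2.41 CPM in lung3 and 2.98 CPM in wt on average. Krt5, a basal keratin gene, had 1 read, while the luminal keratin gene Krt8 had a mean of 1151 CPM in MYBup, 1141 CPM in mock, 741 CPM in lung3 and 842 CPM in wt. Basal genes as a list were not silent: Krt14, another basal keratin gene, had 26.2 to 49.0 CPM in lung3. The basal list, mostly through Vim, summed to a median of 6546 CPM in MYBup, 5283 in mock, 3172 in lung3 and 4187 CPM in wt.

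**Figure D1:**
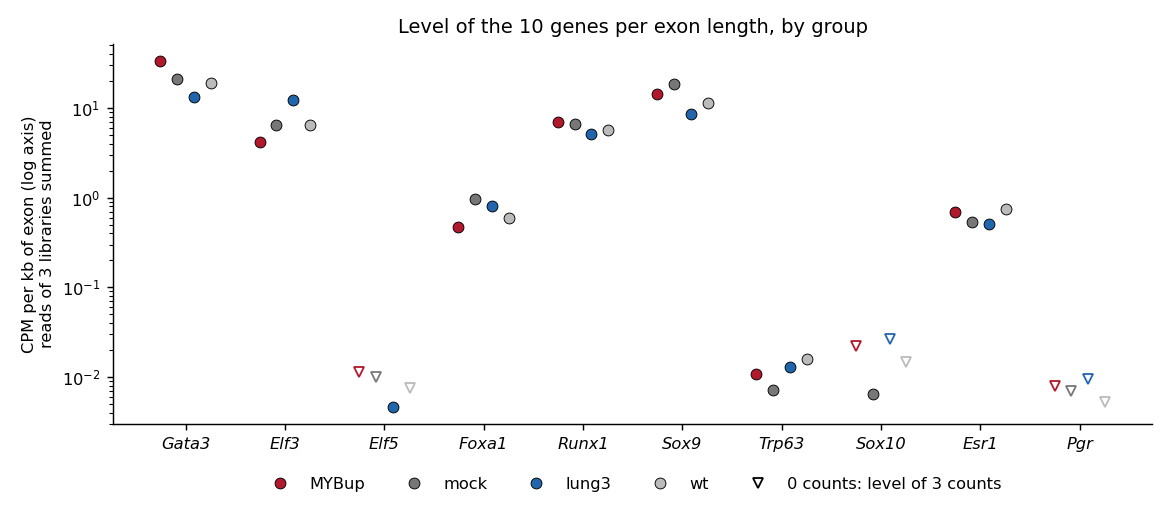
Level of the 10 genes in CPM per kb of exon on a log axis, from the summed reads of the 3 libraries of each group, with open triangles at the level of 3 counts where a group had 0 reads. Gata3, Elf3, Runx1 and Sox9 lie highest, Foxa1 and Esr1 average 0.717 and 0.620 CPM per kb, and Elf5, Trp63, Sox10 and Pgr lie at or near the counting limit in every group.

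Between MYBup and mock, 4 of the 6 tested genes changed, Gata3 and Esr1 upward and Foxa1 and Sox9 downward, at an adjusted p under 0.05 in edgeR's quasi-likelihood test; 26.9% of all 11291 tested genes were called in this comparison. Between lung3 and wt, 4 of 6 changed as well, Elf3 upward and Gata3, Esr1 and Sox9 downward, where 5.36% of all tested genes were called. That share rests on 605 genes, which became 237 without wt replicate 1, 268 without wt replicate 2 and 294 without lung3 replicate 2. With a block for replicate number on the 6 libraries compared, 1985 genes were called. The same 4 members were called under the block, where 17.9% of all tested genes were. Only Gata3 was called without wt replicate 1 (2.08% of all tested genes) or lung3 replicate 1 (3.695%). Gata3 and Elf3 were called without wt replicate 2 (2.35%), and Gata3 and Esr1 without lung3 replicate 2 (2.58%). Without wt replicate 3, 3 members were called (6.03%). In MYBup against mock, leaving out 1 library left 3 to 5 members called, with Gata3, Foxa1 and Sox9 called each time. The share of all tested genes called there ran from 17.97% (without MYBup replicate 3) to 29.7% (without mock replicate 2). Gata3 and Esr1 were thus called in opposite directions in the 2 comparisons, as were 1.44% of all tested genes, and Sox9 was called lower in both, as were 1.07% in the same direction. The groups did not overlap for 4 of the 6 in MYBup against mock, against 40.6% of all tested genes, and for 5 in lung3 against wt, against 27.4%. MYBup against mock and lung3 against wt share no library. The difference between the 2 log2 fold changes was called for 4 of the 6, Gata3, Esr1, Foxa1 and Elf3, and for 19.9% of all tested genes. With a further minimum of 2-fold, Foxa1 alone was called in MYBup against mock (5.43% of all tested genes), 0 members in lung3 against wt (1.45%), mock against wt (5.64%) or MYBup against wt (6.42%), and Gata3, Foxa1 and Elf3 in the difference (6.57%). Mock replicate 3 and lung3 replicate 3 were known from earlier results to stand apart in inflammatory genes. Without both, the same 4 members were called in lung3 against wt, where 4.54% of all tested genes were. Elf3 joined the 4 in MYBup against mock, where 24.1% of all tested genes were called. Mock replicate 3 and lung3 replicate 3 were also the libraries with the lowest Elf3 of their groups. Leaving them out therefore widens both Elf3 differences by construction.

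Gata3 (ENSMUSG00000015619, chr2:9857078-9890034, minus strand) had 124.5, 134.9 and 134.4 CPM in MYBup, against 76.6, 79.4 and 94.5 CPM in mock. It had 51.9, 45.6 and 58.0 CPM in lung3, against 77.7, 77.5 and 70.6 CPM in wt. Every MYBup library lay above every mock library and every lung3 library below every wt library, while mock and wt overlapped. The means were 131.3 ± 5.88 CPM in MYBup and 83.5 ± 9.67 CPM in mock (SD, n = 3 each), a log2 fold change of 0.65 ± 0.10 (SE; edgeR adjusted p = 0.000382). The lung3 mean was 51.8 ± 6.20 CPM and the wt mean 75.3 ± 4.05 CPM, a log2 fold change of -0.53 ± 0.10 (edgeR adjusted p = 0.00851). These are a level 1.57 times that of mock in MYBup and a level 1.45-fold lower in lung3 than in wt. The difference between the 2 log2 fold changes was itself 1.19 ± 0.14 (edgeR adjusted p = 0.000137). Gata3 kept its call in both comparisons in all 20 alternatives other than the 2-fold minimum, which neither change reached. Its exons share 155 bases with Gm13256 on the opposite strand, and whether reads were counted by strand is not given in the sources used here.

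Foxa1 (ENSMUSG00000035451, chr12:57540628-57546916, minus strand) rested on few reads, 19 to 60 per library. It had 1.55, 1.405 and 1.71 CPM in MYBup, against 2.85, 3.28 and 3.53 CPM in mock. It had 2.91, 3.00 and 2.36 CPM in lung3, against 2.14, 1.28 and 2.64 CPM in wt. All 3 MYBup libraries lay below all 3 mock libraries, while lung3 and wt overlapped through wt replicate 3. Foxa1 was 2.04-fold lower in MYBup than in mock, a log2 fold change of -1.03 ± 0.26 (edgeR adjusted p = 0.0091). The lung3 value of 0.45 ± 0.25 against wt was not called (adjusted p = 0.328), with an interval of -0.09 to 0.98. The 2 log2 fold changes differed by -1.48 ± 0.36 (edgeR adjusted p = 0.0112). Set against wt in place of mock, the MYBup value was -0.36 ± 0.26 and was not called (adjusted p = 0.301). Mock itself stood 0.68 ± 0.23 above wt on the log2 scale (edgeR adjusted p = 0.0379), a call lost in 9 of 19 alternatives, among them the leaving out of any mock library (highest adjusted p = 0.143, without wt replicate 2).

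Elf3 (ENSMUSG00000003051, chr1:135253575-135258568, minus strand) had 33.3, 31.1 and 19.75 CPM in lung3, against 13.8, 15.4 and 13.6 CPM in wt. It had 9.94, 9.315 and 8.96 CPM in MYBup, against 15.8, 17.7 and 9.74 CPM in mock. All lung3 libraries lay above all wt libraries, with replicate 3 well below the other two, and MYBup overlapped mock through mock replicate 3 alone. Elf3 was 1.96 times as high in lung3 as in wt, a log2 fold change of 0.97 ± 0.20 (edgeR adjusted p = 0.0143), a call lost without wt replicate 1 (adjusted p = 0.0665), lung3 replicate 1 (0.0595) or lung3 replicate 2 (0.0627). The MYBup value of -0.62 ± 0.22 against mock narrowly missed the threshold (adjusted p = 0.0504). It was called in 8 of 20 alternatives and not in the other 12, with adjusted p between 0.000353 (without mock replicate 3 and lung3 replicate 3) and 0.154 (without mock replicate 1). The 2 log2 fold changes differed by -1.59 ± 0.30 (edgeR adjusted p = 0.00266). Elf3's exons share 162 bases with Gm26642 on the opposite strand, with the same limit as for Gata3.

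The ETS relative of Elf3 and Elf5 named Ehf, another epithelial factor, was singled out after its values were seen. It had 3.565, 6.004 and 0.208 CPM in lung3 replicates 1 to 3, against 0.0454, 0.0826 and 0 CPM in wt. It had 0 CPM in all 3 MYBup libraries, against 1.28, 1.43 and 0.2615 CPM in mock. Replicate 3 was again the lowest of lung3 and of mock, as for Elf3. Summed, 104 reads in lung3 stood against 3 reads in wt, a ratio of 63.1 (95% interval 21.01 to 311.1). This interval covers counting error only and leaves out the spread between libraries. Lung3 replicate 3 had 3 reads, against 2 in wt replicate 2. The edgeR log2 fold change was 5.87, with a wider interval of 3.20 to 8.54. No read was counted in MYBup, against 51 in mock, so Ehf was at least 15.0-fold lower when 3 reads in the 3 MYBup libraries together are taken as the limit. Both differences were called (edgeR adjusted p = 0.0178 for lung3 and 0.0421 for MYBup). Ehf passed the filter on low counts only through lung3 and mock libraries, where it was high, so these tests are not independent of the filter. Against wt in place of mock, the MYBup value of Ehf was not called (edgeR adjusted p = 0.600), with 0 reads against 3. Mock itself was higher than wt in Ehf (log2 fold change 4.27 ± 1.42, edgeR adjusted p = 0.0353). The lung3 call was lost without wt replicate 1 or 2 or lung3 replicate 1 or 2 (highest adjusted p = 0.0912, under voom), and the MYBup call on leaving out any 1 of 9 libraries (highest adjusted p = 0.107). Ehf (chr2:103263433-103303278, minus strand) and Elf5 (ENSMUSG00000027186, chr2:103411688-103450989, plus strand) lie 108409 bases apart, and Elf5 stayed at 0 or 1 read in every library, including those with Ehf reads.

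Esr1 (ENSMUSG00000019768, chr10:4611593-5005614, plus strand) had 6.04, 7.51 and 7.28 CPM in lung3, against 10.09, 10.66 and 9.69 CPM in wt. It had 9.12, 9.09 and 10.2 CPM in MYBup, against 7.40, 6.42 and 8.17 CPM in mock. Every lung3 library lay below every wt library, and every MYBup library above every mock library, there with less than 1 CPM between the nearest libraries. Esr1 was 1.47-fold lower in lung3, a log2 fold change of -0.56 ± 0.13 (edgeR adjusted p = 0.024), lost without wt replicate 1, wt replicate 2 or lung3 replicate 1 (highest adjusted p = 0.0948). The value of 0.37 ± 0.13 for MYBup against mock (edgeR adjusted p = 0.0456) was close to the threshold and was lost in 14 of 20 alternatives, among them the leaving out of any MYBup library (highest adjusted p = 0.175). The 2 log2 fold changes differed by 0.93 ± 0.18 (edgeR adjusted p = 0.00345), a call kept in all 18 alternatives. Against wt, MYBup was not called for Esr1 (-0.10, interval -0.36 to 0.17, adjusted p = 0.562) and mock was 0.47 lower (-0.47 ± 0.12, adjusted p = 0.0102).

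Pgr (ENSMUSG00000031870, chr9:8899833-8968611, plus strand) had no read in any of the 12 libraries, with a limit per group of 0.0673 CPM in MYBup, 0.0595 in mock, 0.0814 in lung3 and 0.0447 CPM in wt. It was at 0 both in MYBup and wt, where Esr1 was higher, and in mock and lung3, where Esr1 was lower. Of 20 hormone-response genes listed beside it, 4 had no read and 11 were tested. In MYBup against mock 3 rose and 2 fell, 5 of 11 where 26.9% of all tested genes were called, with medians of 0.04 in MYBup and -0.14 in lung3 against wt. In lung3 against wt 0 of 11 were called in edgeR, where 5.36% of all tested genes were. Of the 11, 3 had an unadjusted p under 0.05 in edgeR, and voom called 0 and DESeq2 2. The genes that rose in MYBup were Car12, a carbonic anhydrase (log2 fold change 1.995 ± 0.14, adjusted p = 6.18e-07), Stc2, a secreted glycoprotein (2.33 ± 0.17, adjusted p = 8.92e-07), and Id2, an inhibitor of helix-loop-helix factors (0.60 ± 0.19, adjusted p = 0.0341). The Id2 call was lost without mock replicate 1 or 3 or any MYBup library (highest adjusted p = 0.109). Against wt in place of mock, MYBup was lower in Stc2 (-0.70 ± 0.13, edgeR adjusted p = 0.00111), not called in Car12 (0.25 ± 0.13, adjusted p = 0.136) and higher in Id2 (1.43 ± 0.20, adjusted p = 0.000135). Mock itself was lower than wt in Stc2 (-3.03 ± 0.16) and Car12 (-1.74 ± 0.14). Ccnd1, which encodes cyclin D1 and was the most abundant of the list, was lower in MYBup at 2282 ± 90.9 CPM, against 2822 ± 119 CPM in mock (log2 fold change -0.31 ± 0.07, edgeR adjusted p = 0.00671), but against wt its MYBup value was 0.00 and not called (adjusted p = 0.987). Neither oestrogen treatment nor hormone levels are given by the labels.

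Sox9 (ENSMUSG00000000567, chr11:112782224-112787760, plus strand) had 53.03, 61.2 and 62.7 CPM in MYBup, against 73.6, 74.3 and 82.4 CPM in mock. It had 32.1, 34.4 and 39.5 CPM in lung3, against 46.35, 45.7 and 47.7 CPM in wt. None of the 4 groups overlapped any other: all lung3 libraries were lowest, then those of wt, MYBup and mock. The log2 fold change was -0.38 ± 0.09 for MYBup against mock (edgeR adjusted p = 0.00804) and -0.40 ± 0.09 for lung3 against wt (adjusted p = 0.0268). The fall in lung3 was lost when any of the 3 wt libraries or lung3 replicate 1 or 2 was left out (highest adjusted p = 0.0916). The difference between the 2 values was 0.02, with an interval of -0.26 to 0.30 (adjusted p = 0.94). Sox9 was higher in mock than in wt by 0.72 ± 0.09 (edgeR adjusted p = 8.36e-05) and in MYBup than in wt by 0.34 ± 0.09 (adjusted p = 0.0105; 0.0517 without MYBup replicate 3), so its direction in MYBup depends on the control it is set against.

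Trp63 (ENSMUSG00000022510, chr16:25683763-25892102, plus strand) had 1, 2 and 1 reads in MYBup, against 0, 1 and 2 in mock. It had 1, 0 and 3 reads in lung3, against 3, 5 and 1 in wt. The groups overlapped in both pairs, and the ratios of summed reads were 1.51 (95% interval 0.255 to 10.3) for MYBup over mock and 0.809 (0.182 to 2.90) for lung3 over wt. No difference was detectable at this depth. Sox10 (ENSMUSG00000033006, chr15:79154908-79165240, minus strand), with its single read, gives no fold between groups. Of the 8 melanocyte and Schwann cell genes listed beside Sox10, 3 had no read and 3 were tested, and the list summed to 18.3 to 21.7 CPM in MYBup and 12.3 to 16.9 CPM in mock, and to 19.9 to 22.9 CPM in lung3 and 22.0 to 25.2 CPM in wt. Of the 3 tested, 1 was called in MYBup against mock, where 26.9% of all tested genes were. In lung3 against wt 0 were called, where 5.36% of all tested genes were. Mitf, the melanocyte regulator, rose in MYBup to 13.65 ± 0.72 CPM, against 7.43 ± 0.54 CPM in mock (log2 fold change 0.88 ± 0.13, edgeR adjusted p = 0.000275).

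Runx1 (ENSMUSG00000022952, chr16:92601466-92826149, minus strand) varied least of the 6. It had 74.4, 92.7 and 85.4 CPM in MYBup, against 79.65, 69.4 and 86.95 CPM in mock. It had 58.9, 59.1 and 64.1 CPM in lung3, against 65.0, 65.05 and 74.5 CPM in wt. MYBup and mock overlapped almost wholly, and the lung3 libraries all lay just below those of wt. Neither difference was called: 0.10 (interval -0.12 to 0.32, edgeR adjusted p = 0.514) for MYBup and -0.17 (interval -0.39 to 0.06, adjusted p = 0.384) for lung3. Runx1 was higher in MYBup than in wt (0.31 ± 0.10, edgeR adjusted p = 0.0305), lost without MYBup replicate 2 or 3 or wt replicate 1 or 2 (highest adjusted p = 0.132). Its distal promoter, printed above, was the only window of an expressed member with Myb hexamers. Its exons share 106 bases with Gm26626 on the opposite strand.

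**Figure D2:**
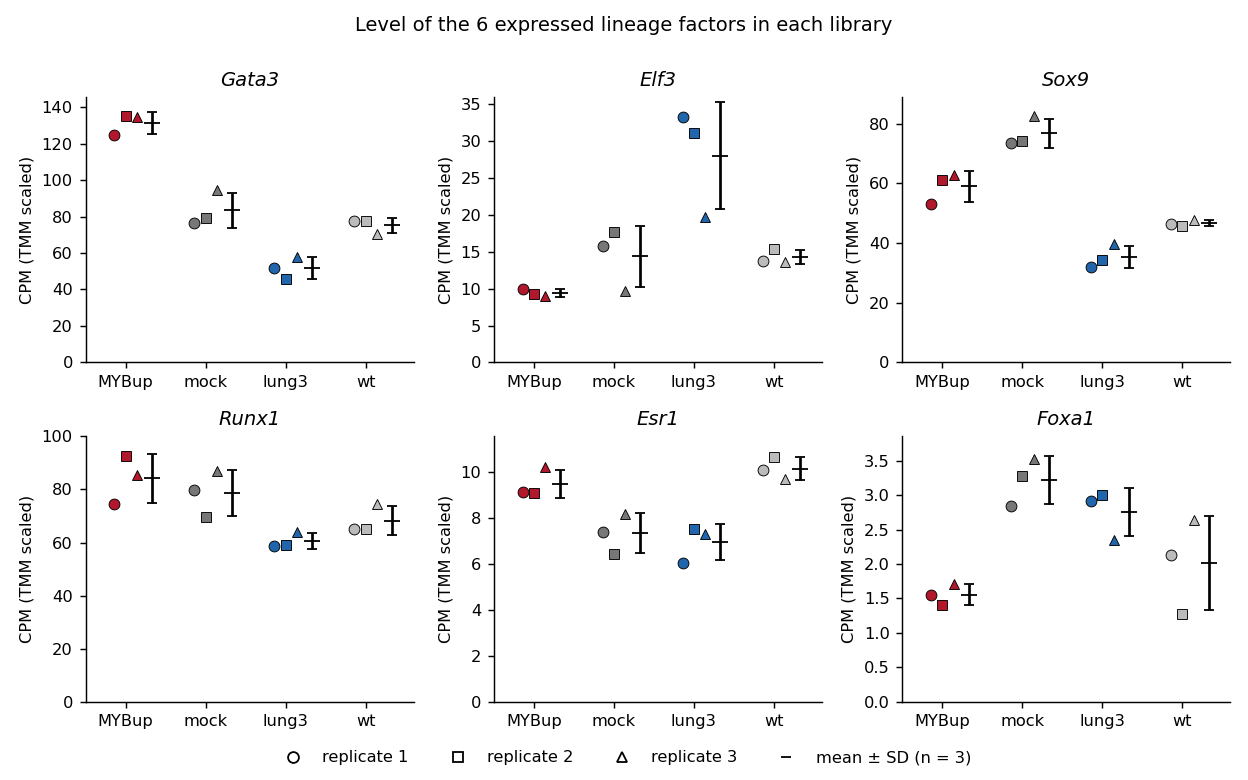
CPM of the 6 expressed genes in each library (points, shaped by replicate number) with the mean ± SD of 3 libraries per group. Gata3 is highest in MYBup and lowest in lung3, Elf3 is the reverse with replicate 3 low in mock and lung3, and Sox9 separates all 4 groups.

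The order of the 4 groups differed from gene to gene. For Gata3 and Runx1 lung3 was lowest and MYBup highest, with mean levels spanning 2.53-fold and 1.39-fold, but for Runx1 neighbouring groups other than lung3 and wt overlapped. Elf3 ran the other way, lowest in MYBup and highest in lung3 over a 2.98-fold span, with wt and mock between them and overlapping. Esr1 had a low pair, lung3 and mock, and a high pair, MYBup and wt, whose libraries did not overlap between the pairs. Foxa1 spanned 2.07-fold from MYBup to mock, and each neighbouring pair in its order overlapped. In mock against wt, 3 of 6 were called, Foxa1 and Sox9 higher and Esr1 lower, where 35.9% of all tested genes were called. In MYBup against wt, 4 were called, Gata3, Sox9 and Runx1 higher and Elf3 lower, where 38.2% were called. The groups did not overlap for 3 of the 6 in mock against wt, where this held for 46.9% of all tested genes, and for 3 in MYBup against wt, where it held for 55.6%. The Elf3 call was lost in 7 of 19 alternatives (highest adjusted p = 0.115). These comparisons share libraries with those above, so they are not separate support for them.

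**Figure D3:**
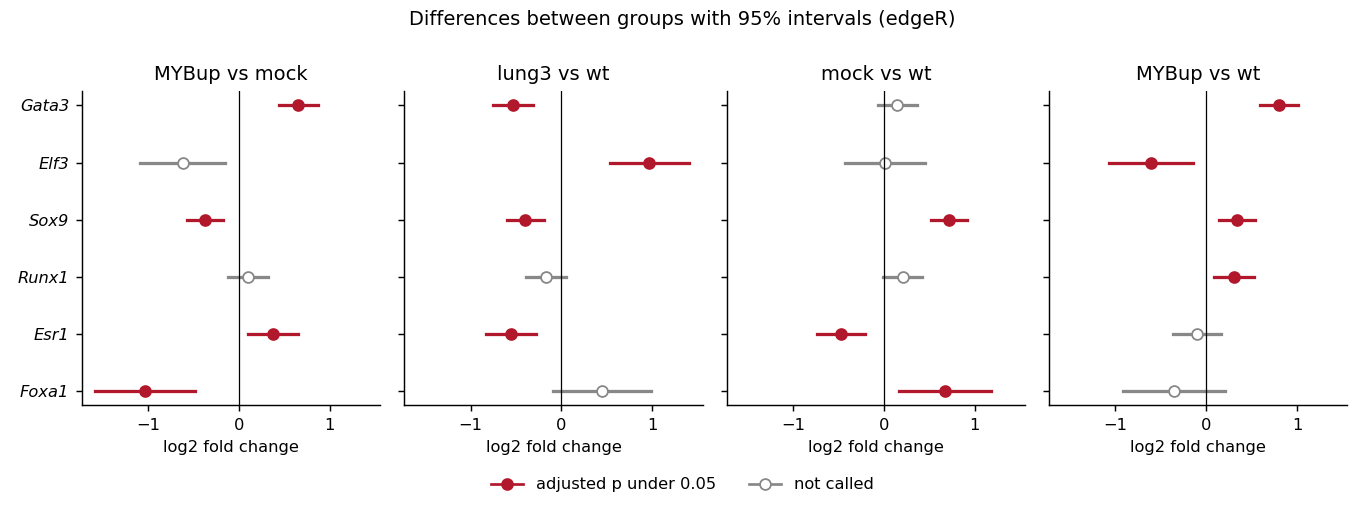
Log2 fold changes (points) with 95% intervals (lines) of the 6 tested genes in 4 comparisons, filled red where the edgeR adjusted p was under 0.05. Gata3 and Esr1 lie right of 0 in MYBup against mock and left of 0 in lung3 against wt, Elf3 is above 0 in lung3 against wt, and Sox9 is below 0 in both.

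The genes whose pattern was most like that of each changed member were found by the root mean square difference of centred log2 CPM over the 12 libraries, among 10028 genes. For Gata3 these were Plekhg5 and Bok, each at 0.125, against a root mean square of 0.49 for Gata3 itself. For Sox9 they were Ttc8 (0.115) and Tgfa (0.119), against 0.42. For Elf3 they were Wdyhv1 (0.164) and Myo1d (0.219), against 0.60, with Wdyhv1 at -0.51 in MYBup against mock and 0.90 in lung3 against wt on the log2 scale. The nearest genes to Esr1 were Slc10a7 (0.136) and Siae (0.137), against 0.26, and those to Foxa1 were Stbd1 (0.223) and Glrp1 (0.233), against 0.45, so for these low genes the likeness was looser relative to the gene's own variation.

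Relatives of the 10 genes in the GATA, ETS, FOX, nuclear receptor, SOX and other families moved in both directions. Of 38 relatives, 10 had no read and 20 were tested; in MYBup against mock 5 rose and 4 fell, 9 of 20 where 26.9% of all tested genes were called (median log2 fold change 0.08, against 0.00 over all tested genes), and in lung3 against wt 2 rose and 1 fell, 3 of 20 where 5.36% were called (median -0.03). Sox13 had 1 read in MYBup against 155 in mock, a level 137-fold lower (95% interval of counting error 24.2 to 5446, edgeR adjusted p = 1.5e-06). Sox12 fell in MYBup to 6.61 ± 0.89 CPM, against 16.9 ± 0.07 CPM in mock (log2 fold change -1.34 ± 0.18, edgeR adjusted p = 0.000141), but was not called in MYBup against wt (-0.29 ± 0.18, adjusted p = 0.222). Foxm1, a forkhead factor of the cell cycle, fell by 0.55 on the log2 scale (adjusted p = 0.000109). Gata4 rose in MYBup to 12.2 ± 0.41 CPM, against 6.57 ± 0.74 CPM in mock (0.91 ± 0.14, adjusted p = 0.000353). Ets1 was the most abundant relative and was called in neither comparison. Ets1 averaged 350.8 CPM in MYBup against 311.2 CPM in mock, and 460.2 CPM in lung3 against 436.5 CPM in wt. Among the named genes of this and the following lists, Foxm1, Tfap2a, Ccnd1, Krt7, Krt8, Mylk, Sox5 and Pdgfra share exon bases with another gene model, so reads of the overlaps cannot be assigned with certainty.

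Of 21 partners and cofactors, all tested, 2 rose and 2 fell in MYBup against mock (median -0.08), and 1 rose and 2 fell in lung3 against wt (median -0.04, against 0.00 over all tested genes). These are 19.05% called where 26.9% of all tested genes were in MYBup against mock, and 14.29% where 5.36% were in lung3 against wt. The AP-2 genes, which work with the oestrogen receptor at enhancers, did not move alike. Tfap2a followed the directions of Gata3, with 61.4 ± 4.50 CPM in MYBup against 48.2 ± 3.07 CPM in mock (log2 fold change 0.35 ± 0.08, edgeR adjusted p = 0.00529) and 32.2 ± 1.35 CPM in lung3 against 40.9 ± 0.79 CPM in wt (-0.34 ± 0.08, adjusted p = 0.0254). The lung3 call of Tfap2a was lost without wt replicate 1 or 2 or lung3 replicate 2 or 3 (highest adjusted p = 0.0993). Tfap2c had 1 read in MYBup against 64 in mock, a level 56.6-fold lower (95% interval of counting error 9.80 to 2269, edgeR adjusted p = 0.000147). It passed the filter on low counts through mock alone, where it was highest, so this test is not independent of the filter. Against wt, MYBup was 11.6-fold lower in Tfap2c (edgeR adjusted p = 0.00845). Mock itself was 3.675-fold higher than wt (edgeR adjusted p = 0.00255). Fkbp4, a co-chaperone of steroid receptors, fell in MYBup (-0.55 ± 0.08, adjusted p = 0.000313). Zfpm2, a GATA cofactor, rose in lung3 to 9.73 ± 2.34 CPM, against 5.10 ± 0.15 CPM in wt (0.92 ± 0.17, adjusted p = 0.0081). Hsp90ab1, a chaperone of steroid receptors and the most abundant of the list, was called in neither comparison, at 5406 CPM in MYBup against 4900 CPM in mock and 6499 CPM in lung3 against 5952 CPM in wt.

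Of 22 luminal and alveolar genes 15 were tested, and in MYBup against mock 0 rose and 4 fell (median -0.15), where 14.3% of all tested genes rose and 12.6% fell in edgeR. Of the members above mock, 1 had an unadjusted p under 0.05 in edgeR, and DESeq2 and voom each called 1. The 4 were Krt7, a keratin of simple epithelia (-0.80 ± 0.11, edgeR adjusted p = 0.00018), Cldn4, a tight junction claudin (-0.86 ± 0.18, adjusted p = 0.00319), Cd14, a luminal progenitor marker also found on monocytes (-0.81 ± 0.15, adjusted p = 0.00179), and Btn1a1, a milk fat globule protein with 14 reads in MYBup against 60 in mock (adjusted p = 0.0133; 0.0755 without MYBup replicate 3). In lung3 against wt 1 of the 15 was called (median -0.13), where 5.36% of all tested genes were. It was Cd14, higher at 13.0 ± 1.70 CPM against 7.30 ± 0.44 CPM in wt (0.83 ± 0.14, edgeR adjusted p = 0.00558), beside the leukocyte marker sums given above, whose part in it was not tested.

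Basal and myoepithelial genes moved both ways: of 13 tested of 23, 4 rose and 3 fell in MYBup against mock (median 0.19), and 4 rose and 1 fell in lung3 against wt (median -0.12). These are 7 of 13 called where 26.9% of all tested genes were, and 5 of 13 where 5.36% were in lung3 against wt. Basal markers summed to 6355 to 6663 CPM in MYBup and 5122 to 5418 CPM in mock, and to 3010 to 3650 CPM in lung3 and 4135 to 4233 CPM in wt, sums that do not overlap in either pair and of which Vim makes the larger part. Mylk, a smooth muscle kinase, rose in MYBup to 6.30 ± 0.85 CPM, against 1.90 ± 0.05 CPM in mock (1.72 ± 0.24, edgeR adjusted p = 0.000198), but was not called in MYBup against wt (-0.28 ± 0.20, adjusted p = 0.289). Jag2, a Notch ligand, fell in MYBup to 3.21 ± 1.02 CPM, against 16.7 ± 5.43 CPM in mock (-2.37 ± 0.29, edgeR adjusted p = 7.45e-05). Against wt, MYBup was lower in Jag2 by a smaller margin (-1.40 ± 0.29, edgeR adjusted p = 0.00237). Mock itself was higher than wt in Jag2 (0.97 ± 0.25, edgeR adjusted p = 0.0087). Krt17 was higher in lung3 with 149 reads against 19 in wt, a ratio of 14.3 (95% interval of counting error 8.83 to 24.4, edgeR adjusted p = 0.000253). It had at most 11 reads in any library outside lung3 and passed the filter on low counts through lung3 alone. Its test in lung3 is therefore not independent of the filter. Krt14, a basal keratin gene singled out after its values were seen, was higher in both comparisons. It had 8.39 ± 0.48 CPM in MYBup against 1.84 ± 0.63 CPM in mock (2.19 ± 0.38, edgeR adjusted p = 0.00109) and 34.8 ± 12.4 CPM in lung3 against 7.59 ± 3.66 CPM in wt (2.21 ± 0.29, adjusted p = 0.00104). Mock was lower than wt in Krt14 (-2.04 ± 0.38) and in Mylk (-2.01 ± 0.23), and MYBup against wt was not called for Krt14 (0.15 ± 0.31, edgeR adjusted p = 0.732). Vim, the mesenchymal intermediate filament and the most abundant of the list, was higher in MYBup at 5614 ± 70.5 CPM, against 4369 ± 277 CPM in mock, and lower in lung3 at 2462 ± 341 CPM, against 3296 ± 112 CPM in wt (edgeR adjusted p = 0.016 and 0.0254). The MYBup call of Vim was lost without mock replicate 1, and the lung3 call without any wt library or lung3 replicate 1 or 2 (highest adjusted p = 0.0976). Trp63, the regulator of this layer, had at most 9 reads in any group.

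**Figure D4:**
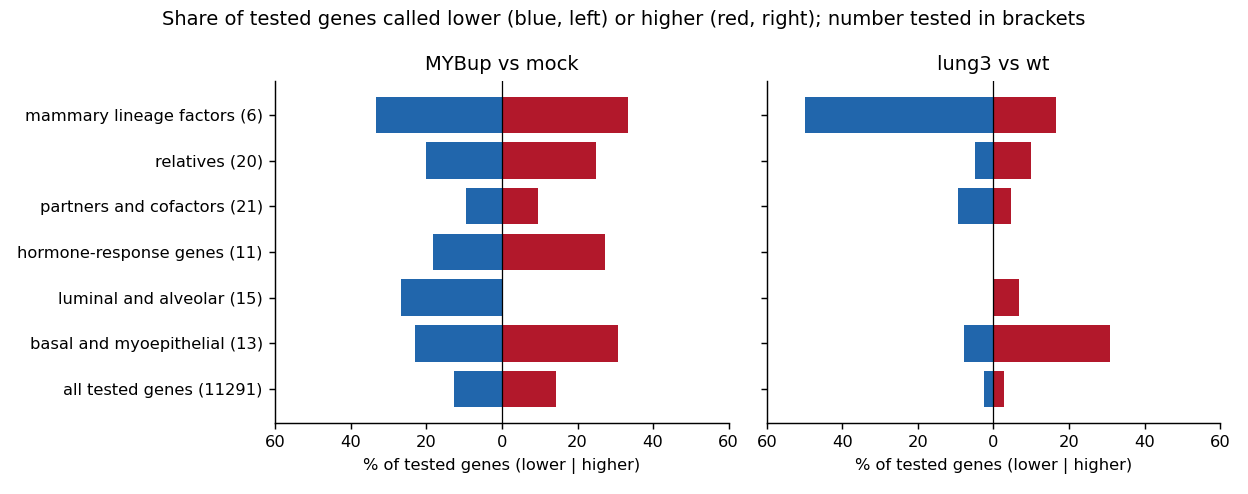
Share of the tested genes of each list called lower (blue, left) or higher (red, right) in MYBup against mock and in lung3 against wt, with the number tested in brackets. The bar of all tested genes gives the background, 14.3% higher and 12.6% lower in MYBup against mock and 2.91% higher and 2.44% lower in lung3 against wt.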

How the data were processed

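Gene expression was measured in 12 RNA-seq libraries of 4T1 cells, prepared with a TruSeq RNA kit per the labels. The authors deposited 1 table of raw, unnormalised read counts by gene. STAR, edgeR and the build GRCm38 are named by the submitters' processing notes. Tool versions, the program that counted reads, its gene models and its handling of strand are not given in the sources here. Of 22880 Ensembl identifiers 22570 matched a symbol. The deposited counts of over 4 digits, 2708 values, keep 4 significant digits. It holds 0 columns that were not used. Gene positions and exon lengths come from GENCODE M21 on GRCm38, 1-based, and promoter windows from RefSeq on GRCm38.p6.

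The test was edgeR 4.0.16 in R 4.3.3: the quasi-likelihood F test with TMM factors and filterByExpr, on all 12 libraries in 1 model with a term per group. P-values were adjusted by the Benjamini-Hochberg method over 11291 genes, with a threshold of 0.05. CPM used TMM factors. The value after ± is the SD over 3 libraries for a mean level and the SE for a log2 fold change. SE was obtained as the size of the log2 fold change over the square root of the F statistic. Genes with few reads are given as ratios of summed counts with exact 95% intervals, or a floor of 3 counts, which cover counting error only. No 2 libraries of a group agreed within sampling noise (chi-square per gene 2.29 to 37.4). The scripts were checked on simulated counts.

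The 10 members and the 10 lists beside them were chosen with earlier results of these data known. From each list the text names up to 4 called genes with the smallest adjusted p and the most abundant gene, and for each changed member the 2 genes nearest in pattern. 1 gene taken from the lists is not reported here. The undetected genes named in the text, Ehf and Krt14 were chosen after their values were seen. Alternatives were RLE factors, omitting the filter, a block for replicate number, fits on only the libraries compared, DESeq2 1.42.0, limma 3.58.1 voom, a 2-fold minimum and leaving out libraries.

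To see whether like replicate numbers mark paired libraries, deviations from group means were correlated over 8956 genes. Between lung3 and wt, libraries of like number correlated at 0.539, 0.335 and 0.234, all over 0.1. These numbers were treated as possible pairs only in an alternative with a block for replicate number. The main fit, from which the lung3 results come, had no term for pairs. Under the block on the 6 libraries 17.9% of all tested genes were called in lung3 against wt, against 5.36% in the main fit. For MYBup and mock they were -0.381, -0.754 and 0.593, so the numbers were not taken as pairs. There, libraries of unlike number reached 0.824 (MYBup replicate 1 with mock replicate 2). A correlation of this kind therefore cannot establish that libraries are paired, and the labels name no pairs.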

Additional observations from a re-analysis of the deposited data

How the results depend on the processing

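Gata3 kept its direction and its calls in MYBup against mock and in lung3 against wt in all 20 alternatives of each other than the 2-fold minimum, and Foxa1 in MYBup against mock did so too. The block for replicate number, fitted on the 6 lung3 and wt libraries, was added after seeing the data. It left the same 4 members called but raised the calls over all genes to 1985, against 605 without it. The same block on MYBup and mock, whose numbers were not taken as pairs, gave 1479 calls against 3038, with Esr1 at 0.363 (adjusted p = 0.134) and Sox9 at -0.39 (0.0528), both no longer called. The Esr1 rise in MYBup was also lost with no filter (0.363, adjusted p = 0.0782), a replicate block on 12 libraries (0.366), DESeq2 (0.369) and a fit on 6 libraries (0.364). Elf3 in MYBup against mock passed the threshold with RLE factors (-0.623), no filter (-0.628), the block on 12 libraries (-0.578), DESeq2 (-0.621) and without mock replicate 3 and lung3 replicate 3 together (-0.832). With 1 library left out, MYBup against mock values spanned 0.288 to 0.454 for Esr1 and -0.828 to -0.462 for Elf3. Those of lung3 against wt spanned -0.606 to -0.46 for Esr1, -0.489 to -0.329 for Sox9 and 0.815 to 1.177 for Elf3. Elf3 in mock against wt, never called, changed sign with the block on 12 libraries (-0.014), with voom (-0.023) and in the leaving out of 4 libraries (range -0.135 to 0.224). The difference between the 2 comparisons for Sox9, near 0, also changed sign (range -0.05 to 0.109). DESeq2 called 919 genes in lung3 against wt. A 2-fold minimum left 613 genes in MYBup against mock, 164 in lung3 against wt, 637 in mock against wt, 725 in MYBup against wt and 742 in the difference. Without 1 library, lung3 against wt gave 237 (without wt replicate 1) to 853 calls, 268 without wt replicate 2 and 294 without lung3 replicate 2. The cause of these changes was not tested. Of the 31 calls of genes taken from the lists, 22 were kept in every alternative other than the 2-fold minimum and 9 were lost in some, those of Tfap2a, Vim, Id2, Ccnd1, Btn1a1 and Ehf. Foxa1, at 19 to 60 reads per library, and the 4 genes near 0 are limited by depth.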

Other observations

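Of 10 reported targets of Sox9 in cartilage, 5 had no read and 3 were tested. Over the whole table, 7336 of 22880 features had no read and 11291 were tested. Col2a1, the cartilage collagen gene, had 0 reads in MYBup and 39 in mock, which is at least 11.5-fold lower if 3 reads over the MYBup libraries are taken as the limit. It had 14 reads in lung3 against 27 in wt, a ratio of 0.944 with an interval of 0.458 to 1.865. Sox5, a Sox9 partner, had 0.946, 1.73 and 1.39 CPM in lung3, against 5.95, 6.77 and 4.36 CPM in wt, a log2 fold change of -2.12 ± 0.27 (edgeR adjusted p = 0.000821). In MYBup it averaged 10.4 ± 1.38 CPM, against 10.4 ± 2.31 CPM in mock, and was not called. Thus Sox5 and Sox9 were both called lower in lung3, whereas Sox9 was called lower in MYBup and Sox5 was not, at a value of 0.00 with an adjusted p of 0.997.

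Of 11 markers of stromal cells, 4 had no read and Pdgfra, a fibroblast receptor gene, was the 1 tested, at 18.05 ± 2.95 CPM in lung3 and 26.6 ± 4.50 CPM in wt (edgeR adjusted p = 0.0667). In MYBup it had 45.1 ± 5.58 CPM and in mock 40.9 ± 6.66 CPM. Cd68, a macrophage gene, was the 1 leukocyte marker tested, at 7.71 ± 0.44 CPM in lung3 and 5.20 ± 0.79 CPM in wt (adjusted p = 0.129). Foxj1, of ciliated cells, was the 1 lung epithelial marker tested, at 0.515 ± 0.22 CPM in lung3 and 0.539 ± 0.41 CPM in wt. Erbb3, the most abundant gene of the melanocyte and Schwann cell list, had 13.0 ± 0.91 CPM in lung3 and 14.6 ± 0.99 CPM in wt, and 6.32 ± 1.31 CPM in MYBup and 6.90 ± 1.86 CPM in mock, with neither difference called.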
